A study of Mus musculus with 6 samples.

Results

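Fibro-adipogenic progenitors are mesenchymal cells that lie between the fibres of skeletal muscle. They are recognised by a set of surface proteins, secreted proteins and transcription factors, and 32 genes of that set were taken here from a fixed list of symbols among the 41388 genes of the count table. All 32 were found. Of these, 31 passed the filter on low counts and were tested together with the other genes, which made 15186 tested genes. Tcf21 did not pass, with 0 to 5 counts per library.

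The cells were primary progenitors from the muscle of male wild-type mice, grown in medium with serum and a fibroblast growth factor. Polyadenylated RNA was sequenced from 3 libraries of cells given vehicle and 3 libraries of cells given 500 nM prostaglandin E2 (PGE2), a lipid mediator, in each case daily for 2 days. Whether the libraries of a group are separate animals or cultures is not in the labels, and p-values therefore speak only to the spread among these samples, which may be technical. The levels below are those of cultured cells.

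Pdgfra, Ly6a (Sca-1) and Cd34 are the proteins by which these cells are usually sorted. PDGFRA is a receptor tyrosine kinase for platelet-derived growth factors, LY6A is a lipid-anchored protein, and CD34 is a sialomucin. Within muscle and other tissues, a subset of fibroblasts that carries DPP4, PI16 and CD55 is described as a more stem-like, less committed state found around vessels and in connective tissue sheaths, and other subsets carry markers such as COL15A1 and lie closer to the parenchyma. The comparison asks whether the markers of that state and the other markers responded in the same way to PGE2.

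The labelled cell type was checked first. Pdgfra was at 1122, 1455 and 1269 CPM (a gene's counts scaled to the normalised size of its library) in the vehicle libraries, in the order of their numbers, Ly6a at 567, 528 and 610.0 CPM, and Cd34 at 242, 187 and 159 CPM. All 3 defining markers were therefore high in every vehicle library. The leukocyte marker Ptprc and the Schwann cell regulator Sox10 had 0 counts in all 6 libraries, which allows at most 3 counts or 0.142 CPM in the shallowest one. The endothelial marker Pecam1 was between 0.0775 and 0.254 CPM. Cdh5, the other defining endothelial marker, was between 0.299 and 2.89 CPM, and the endothelial gene Kdr between 2.31 and 4.95 CPM. The muscle stem cell regulator Pax7 was at or below 0.0698 CPM, but later myogenic genes were present and are described further below.

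The markers spanned a wide range of levels. Of the 32 genes, 28 were at 1 CPM or more in every vehicle library. Levels are compared between genes as CPM per kilobase of the longest annotated transcript, means ± SD over 3 vehicle libraries. Ly6a was first at 595 ± 43.1 and overlapped the range of Gsn, which encodes the actin-severing protein gelsolin, at 574 ± 81.5. Both lay above the tetraspanin gene Cd81 at 242 ± 19.6. Cd248, Anxa3, Pdgfra and Thy1 followed between 157 and 208, and the range of each overlapped that of the gene before it. Ly6c1 stood by itself at 119 ± 12.6, with no overlap with its neighbours on either side.

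Most transcription factors lay in the middle of the order. Prrx1, a homeobox gene of limb mesenchyme, was at 65.6 ± 5.14 CPM per kilobase, next to Cd34 at 63.9 ± 13.8 and the secreted calcium-binding protein gene Smoc2 at 61.3 ± 15.6, with overlapping ranges. Hic1, a repressor tied to mesenchymal quiescence, was at 52.7 ± 5.70. Twist1 at 35.0 ± 1.64 and Osr1 at 27.6 ± 1.60 each stood clear of their neighbours on this length. Per kilobase of merged exons they did not, since the means of Twist1 and Smoc2 were both 35.0 and those of Osr1 and Cd34 both 26.9. A run of genes from Tcf7l2 at 10.8 to Clu at 5.88 CPM per kilobase overlapped step by step.

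The Dpp4/Pi16/Cd55-type markers did not share a level. This group was taken as Dpp4, Pi16, Cd55, Anxa3 and Ly6c1. Anxa3 was at 195 ± 31.1 CPM per kilobase and Ly6c1 at 119 ± 12.6, while Cd55 was at 8.27 ± 0.471, Pi16 at 1.64 ± 1.26 and Dpp4 at 0.304 ± 0.140. Gli1, a target of hedgehog signalling, and Nt5e, which encodes CD73, lay below Dpp4 at 0.138 and 0.132. Using the merged exon length in place of the longest transcript moved 7 of 32 genes by more than 3 places in the order and none by more than 6.

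**Figure D1:**
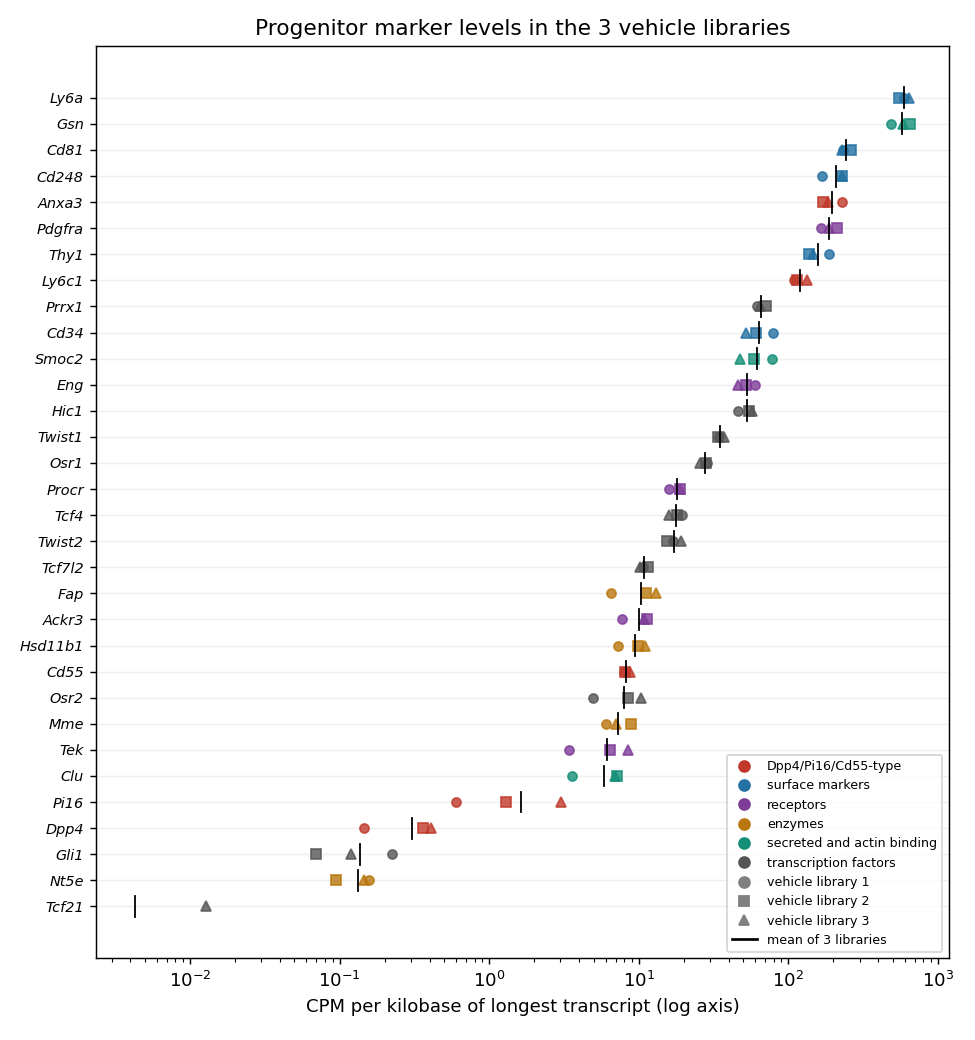
Level of each of the 32 markers in the 3 vehicle libraries, in CPM per kilobase of the longest annotated transcript on a log axis. Points are libraries, the black tick is the mean, colours are the roles of the genes, and libraries at 0 (2 for Tcf21) are not drawn; Ly6a and Gsn lie highest and Pi16 and Dpp4 stand near the lower end, with widely spaced libraries for Pi16.

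Spread between vehicle libraries differed between markers. Pi16 ranged from 2.40 to 12.1 CPM, a 5.06-fold range, and Dpp4 from 0.767 to 2.15 CPM, a 2.80-fold range. Cd55 varied by 1.11-fold and Twist1 by 1.09-fold among the same libraries. Tek, Osr2, Fap and Clu lay between, with ranges of 1.98-fold to 2.48-fold, and Gli1, with at most 39 counts, had a 3.19-fold range. In vehicle library 1 all of Dpp4, Pi16, Tek, Osr2, Fap and Clu were at their lowest of the 3.

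With the unblocked edgeR test, 0 of 31 tested markers passed a Benjamini-Hochberg adjusted p of 0.05, where 0.342% of all tested genes did. At an unadjusted p under 0.05 there were 12 of 31, or 38.7%, against 20.1% of all tested genes. DESeq2 called 8, where it called 6.04% of genes, and limma-voom called 0, where it called 0.0988%. DESeq2 with the replicate block called 13, where it called 14.0%, and edgeR with no filter on low counts called 5, where it called 1.23%. Both groups carry the numbers 1 to 3, and deviations of same-numbered libraries correlated positively, although the labels state no pairing. PGE2 library 2 correlated more with vehicle library 3 than with vehicle library 2. The fit with the number as a block, called the paired fit here, is given beside the unblocked one.

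In the paired fit 13 of 31 markers passed, or 41.9%, against 14.4% of all tested genes. Of these 8 rose, where 6.91% of all genes did, and 5 fell, where 7.51% did. Those that rose were Ly6a, Thy1, Cd55, Ly6c1, Pi16, Ackr3, Procr and Hsd11b1, and those that fell were Cd34, Gsn, Mme, Tek and Tcf4. All 32 markers are annotated as protein-coding genes. The median log2 fold change over the 31 was 0.055 unblocked, and over all tested genes it was -0.001. A correction for transcript length was also fitted, and with it the unblocked median of the 31 was -0.018 and that of all tested genes -0.009. The paired fit with that correction called 17 of 31, against 16.8% of all genes, with 10 higher (8.82% of all genes) and 7 lower (7.97%), and 11 were called both with and without it. The unblocked one called 0 of 31, against 0.0988%.

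**Figure D2:**
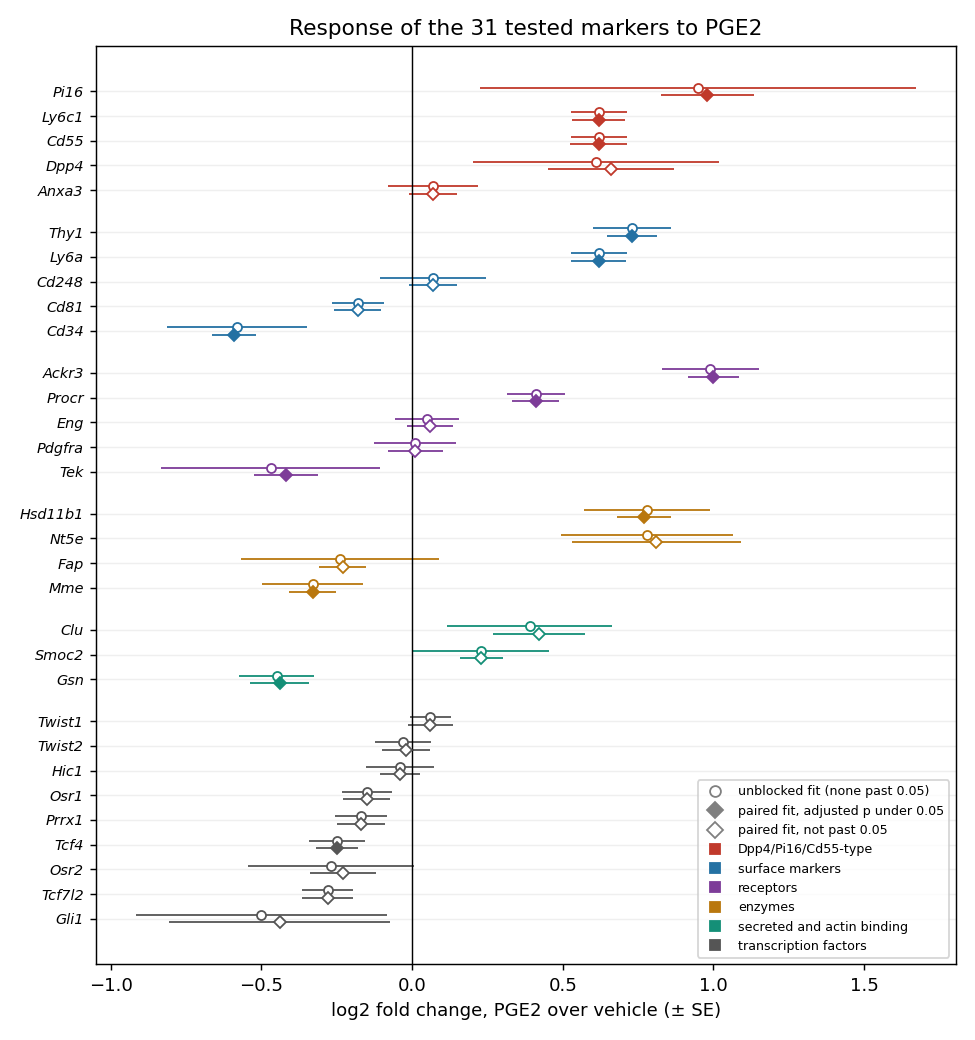
Log2 fold change (PGE2 over vehicle, ± SE) of the 31 tested markers, grouped by role. Open circles are the unblocked fit, in which none passed, and diamonds the paired fit, filled where the adjusted p was under 0.05; Ackr3 and Pi16 lie farthest to the right and Cd34 farthest to the left of the filled diamonds.

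Of the 5 Dpp4/Pi16/Cd55-type markers, 3 rose in the paired fit and 0 fell, where 6.91% and 7.51% of all tested genes did. Unblocked, 0 passed, where 0.342% of all tested genes did. Their median log2 fold change was 0.619 unblocked, against -0.034 for the 26 other tested markers. The median of the 5 is the value of Ly6c1, and the 5 ran from 0.07 to 0.95. The grouping was made with earlier results of these data known. The medians within the numbered pairs were 0.800, 0.694 and 0.367 for the 5 genes and -0.017, 0.002 and -0.077 for the other 26. No test of this difference between the groups of genes was made, because genes are not replicates, and 5 of the other markers rose and 5 fell in the same fit.

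Cd55 (chr1:130439027-130462744, minus strand, of GRCm38) encodes decay-accelerating factor, which limits complement on the cell surface. With vehicle it stood at 25.0, 25.2 and 27.6 CPM, and with PGE2 at 43.5, 40.7 and 35.6 CPM. The groups did not overlap, and the rise was smallest in pair 3. Its log2 fold change was 0.62 ± 0.0937, and the edgeR adjusted p was 0.0534 without the block and 0.00257 with it. A related gene, Cd55b, shares 4.19% of the 100-base words of Cd55, so a small part of its reads could be assigned to either.

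Ly6c1 (chr15:75044018-75048830, minus strand) is a member of the Ly6 family of lipid-anchored surface proteins. It was at 92.3, 96.8 and 113 CPM with vehicle and at 156, 162 and 145 CPM with PGE2, again without overlap. The log2 fold change was 0.62 ± 0.0941, and the edgeR adjusted p was 0.0535 without the block and 0.00168 with it. In the length-corrected paired fit Ly6c1 was lower, at 0.44, and still passed (edgeR adjusted p = 0.00011). Of its 100-base words 9.15% also occur in Ly6c2, which had at most 1 count in any library. Anxa3, an annexin that binds membranes in the presence of calcium, was at 367, 271 and 296 CPM with vehicle and 383, 312 and 285 CPM with PGE2. The groups overlapped, the log2 fold change was 0.07 ± 0.150, and its sign turned to -0.06 in the length-corrected paired fit.

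Pi16 (chr17:29317680-29330593, plus strand) encodes a secreted peptidase inhibitor that gives the subset its name. It was at 2.40, 5.16 and 12.1 CPM with vehicle and at 4.18, 14.6 and 19.5 CPM with PGE2. The groups overlapped, since vehicle library 3 exceeded PGE2 library 1, but the PGE2 library was higher in each pair, by 1.74-fold, 2.84-fold and 1.61-fold. The unblocked log2 fold change of 0.95 ± 0.724 did not pass (edgeR adjusted p = 0.505), and the paired value of 0.98 ± 0.155 did (0.00315). The unblocked value rested on single libraries, at 1.786 without vehicle library 3, 0.523 without vehicle library 1 and 0.514 without PGE2 library 3. This was the marker for which the block made the largest difference to the error. Dpp4, a serine protease of the cell surface, was at 0.767, 1.89 and 2.15 CPM with vehicle and 1.70, 2.37 and 3.21 CPM with PGE2, from 33 to 122 counts per library. It was 2.22-fold, 1.25-fold and 1.49-fold higher in the pairs, and over all pairs it passed with the length correction and not without it (paired edgeR adjusted p = 0.0239 and 0.0595). It also passed without pair 2, where 7.58% of all tested genes passed, and not without pair 1 or pair 3 (edgeR adjusted p = 0.266 and 0.0574).

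Library 1 of each group had the lowest Pi16 and Dpp4 and the most myogenic RNA of its group. Together, 11 myogenic genes reached 216, 68.1 and 42.3 CPM with vehicle, and 146, 20.0 and 21.7 CPM with PGE2. All 9 tested myogenic genes were lower in the PGE2 library of each pair, and 52.1% of all tested genes kept 1 direction in all pairs. In the paired fit 6 of 9 fell, where 7.51% of all tested genes did. With the length correction 4 fell, where 7.97% did, and 0 passed unblocked, where 0.342% did. Myod1, a master regulator of muscle fate, was at 5.72, 1.42 and 0.901 CPM with vehicle and 2.80, 0.349 and 0.326 CPM with PGE2. Myog, which drives terminal differentiation, was between 0.620 and 20.9 CPM. The part of myogenic transcripts in the marker differences was not tested, and in bulk samples fewer cells of a type and less RNA per cell cannot be told apart.

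**Figure D3:**
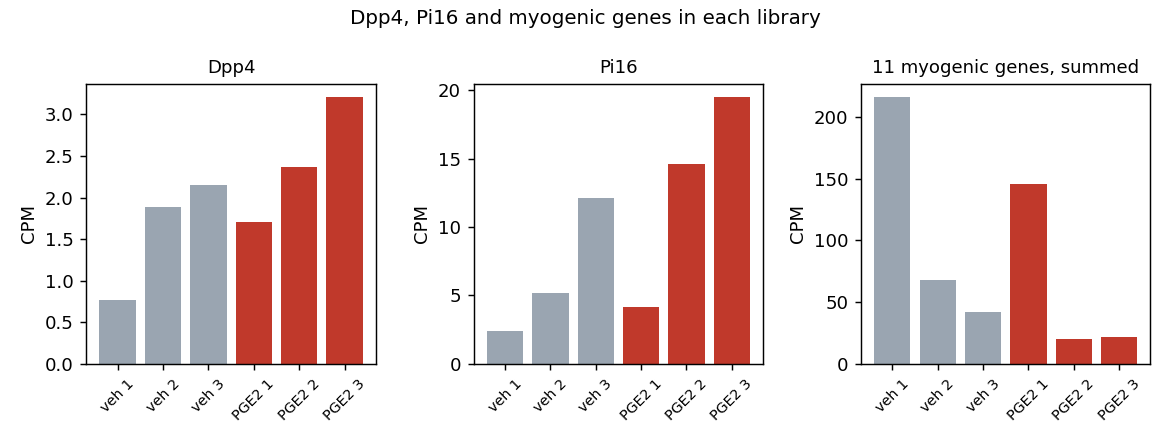
Level in CPM of Dpp4, of Pi16 and of 11 myogenic genes summed, in each of the 6 libraries (grey bars vehicle, red bars PGE2). Vehicle library 1 and PGE2 library 1 hold the lowest Pi16 and Dpp4 values of their groups and the highest myogenic sums, at 216 and 146 CPM.

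Among the other surface markers, Ly6a and Thy1 were higher with PGE2 and Cd34 was lower. Ly6a was at 567, 528 and 610.0 CPM with vehicle and at 859, 920.4 and 838 CPM with PGE2, with no overlap. Its log2 fold change was 0.62 ± 0.0940, and the edgeR adjusted p was 0.0535 without the block and 0.00212 with it. In the length-corrected paired fit Ly6a was at 0.44 and passed (edgeR adjusted p = 0.000423). Only 1.45% of its 100-base words occur in another gene, Ly6c1. Thy1 (chr9:44043384-44048579, plus strand), which encodes the CD90 glycoprotein of fibroblasts and T cells, was at 322, 240.2 and 254 CPM with vehicle and 491, 444 and 416 CPM with PGE2. It did not overlap between groups, and its log2 fold change was 0.73 ± 0.130 (edgeR adjusted p = 0.0762 unblocked, 0.000439 paired). It was the 1 marker that passed unblocked when vehicle library 1 was left out, where 0.194% of all genes passed.

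Cd34 (chr1:194938819-194961279, plus strand), a sialomucin of progenitor and endothelial cells, was at 242, 187 and 159 CPM with vehicle and at 174, 114 and 105 CPM with PGE2. PGE2 library 1 lay between the vehicle libraries, so the groups overlapped, but each pair showed a lower value, at 0.717, 0.612 and 0.663 of vehicle. The paired log2 fold change was -0.59 ± 0.0729 (edgeR adjusted p = 0.000748), and the unblocked one -0.58 ± 0.232 (0.234). Ly6a and Cd34, both used to sort these cells, thus moved in opposite directions in the paired fit. Cd248, the endosialin gene of stromal cells, had a log2 fold change of 0.07 ± 0.175 and Cd81 of -0.18 ± 0.0854, and neither passed unblocked or paired. With the length correction Cd81 fell in the paired fit, at -0.31 (edgeR adjusted p = 0.00761).

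Among receptors, Pdgfra was at 1122, 1455 and 1269 CPM with vehicle and 1126, 1333 and 1406 CPM with PGE2, a log2 fold change of 0.01 ± 0.135 that was positive or negative depending on the scaling, at -0.001 with DESeq2-type size factors in edgeR and -0.037 with library totals alone. In the length-corrected paired fit it was at 0.17 ± 0.0664 and did not pass (edgeR adjusted p = 0.0953). Eng, the TGF-beta co-receptor endoglin, was at 0.05 ± 0.107. Ackr3 (chr1:90203980-90216751, plus strand), an atypical receptor that takes up the chemokine CXCL12, had the largest fold change of the markers in the unblocked and the paired fit, while Pi16 was larger in the length-corrected paired fit (1.00 against 0.98). Ackr3 was at 23.8, 34.6 and 33.3 CPM with vehicle and at 53.4, 69.1 and 59.7 CPM with PGE2, so that every PGE2 library exceeded every vehicle library. Its log2 fold change was 0.99 ± 0.160, and the edgeR adjusted p was 0.0644 without the block and 9.47e-05 with it, and it was the 1 marker that passed unblocked without PGE2 library 1, where 0.784% of all genes passed.

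Procr, the endothelial protein C receptor, was at 25.6, 30.5 and 30.6 CPM with vehicle and 35.8, 41.1 and 38.6 CPM with PGE2. The groups did not overlap, and it rose in the paired fit (0.41 ± 0.0773, edgeR adjusted p = 0.00713). With the length correction the paired value was 0.29 (edgeR adjusted p = 0.007). Tek, the angiopoietin receptor TIE2 of endothelium that is also reported on progenitors, was at 16.0, 29.7 and 39.7 CPM with vehicle and 14.9, 19.2 and 27.4 CPM with PGE2. The groups overlapped, and it fell in the paired fit (-0.42 ± 0.106, edgeR adjusted p = 0.0254), though not without pair 2. The 6 endothelial markers summed to between 5.19 and 7.34 CPM with vehicle and between 4.11 and 5.95 CPM with PGE2, and Cldn5 had 0 counts in every library. Of the 3 of these that were tested 0 passed in either fit, where 0.342% of all tested genes passed unblocked and 14.4% paired.

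Promoter windows are shown for 3 markers that rose in the paired fit and for Pdgfra, which passed in none of these fits, because PGE2 receptors can act through cyclic AMP and the factor CREB, which binds the motif TGACGTCA or its core TGACG. Each is 250 bases before to 50 bases after the RefSeq start on GRCm38.p6, written 5′ to 3′ on the strand of the gene, and capitals mark the core on either strand (CGTCA where it is on the other strand).
Cd55, chr1:130462695-130462994, minus strand: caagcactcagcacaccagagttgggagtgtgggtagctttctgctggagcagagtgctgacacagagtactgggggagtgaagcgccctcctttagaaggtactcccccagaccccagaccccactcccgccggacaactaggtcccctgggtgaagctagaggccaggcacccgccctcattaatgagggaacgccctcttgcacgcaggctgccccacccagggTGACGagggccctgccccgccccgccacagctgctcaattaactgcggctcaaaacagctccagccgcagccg
Procr, chr2:155750967-155751266, plus strand: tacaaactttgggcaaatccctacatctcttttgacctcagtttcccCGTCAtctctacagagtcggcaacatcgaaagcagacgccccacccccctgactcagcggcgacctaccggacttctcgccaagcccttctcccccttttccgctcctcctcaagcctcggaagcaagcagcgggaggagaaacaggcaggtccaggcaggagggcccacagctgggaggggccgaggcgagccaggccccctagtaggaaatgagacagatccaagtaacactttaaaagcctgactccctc
Ackr3, chr1:90203730-90204029, plus strand: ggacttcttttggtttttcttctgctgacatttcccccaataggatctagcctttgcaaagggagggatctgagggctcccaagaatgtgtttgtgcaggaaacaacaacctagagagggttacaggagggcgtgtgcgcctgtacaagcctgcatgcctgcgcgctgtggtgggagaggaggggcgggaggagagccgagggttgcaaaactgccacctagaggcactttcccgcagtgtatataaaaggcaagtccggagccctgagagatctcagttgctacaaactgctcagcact
Pdgfra, chr5:75152001-75152300, plus strand: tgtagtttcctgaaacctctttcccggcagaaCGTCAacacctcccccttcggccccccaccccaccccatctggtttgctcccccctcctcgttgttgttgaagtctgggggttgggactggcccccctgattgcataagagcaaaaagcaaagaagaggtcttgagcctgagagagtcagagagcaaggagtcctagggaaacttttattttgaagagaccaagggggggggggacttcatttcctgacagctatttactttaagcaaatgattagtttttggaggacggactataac

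The core lies 23 bases before the start in Cd55, 203 in Procr and 218 in Pdgfra, and the Ackr3 window has none. Windows of Pi16, Ly6c1 and Hsd11b1, which also rose in the paired fit and are not shown, have none either. The table held 28 windows for 21 of the 32 markers, and 5 of the 28, or 17.9%, have the core, 1 each for Cd55, Pdgfra, Procr, Tcf7l2 and Twist1, while 20.81% of all 32851 windows have it. The full motif TGACGTCA is in 1.79% of all windows and the NR4A response element AAAGGTCA, searched on both strands, in 1.51%. Neither is in any of the 28 windows, and TGACG counts also where it is part of TGACGTCA. These matches describe letters in these windows and no binding.

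**Figure D4:**
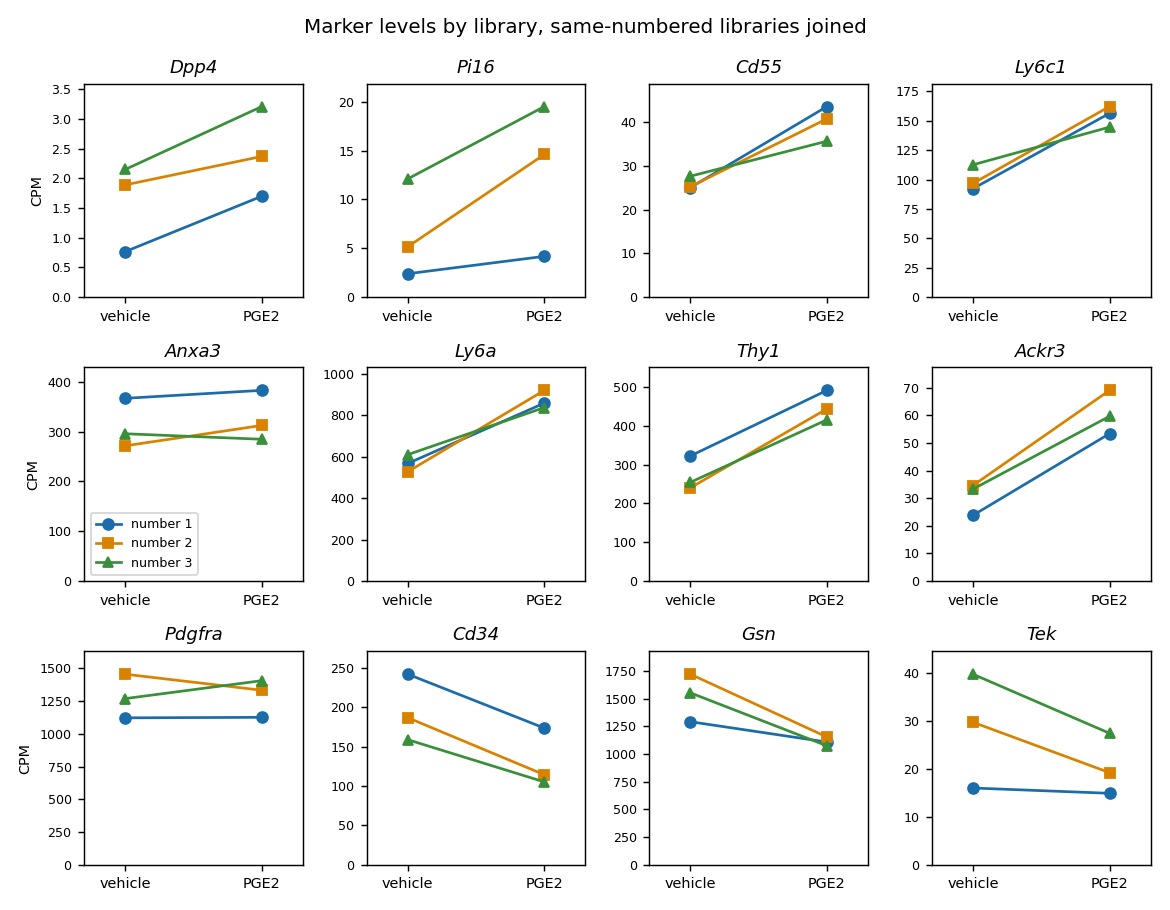
Level in CPM of 12 markers in each library, with vehicle and PGE2 libraries of the same number joined by a line. Lines for Cd55, Ly6c1, Ly6a, Thy1 and Ackr3 climb in all 3 pairs to PGE2 values above every vehicle value. Those for Pi16 climb from well-separated vehicle values and those for Dpp4 from vehicle values of which library 1 is lowest. Those for Cd34, Gsn and Tek descend.

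The enzymes differed among themselves. Hsd11b1 (chr1:193221634-193264075, minus strand), which reactivates glucocorticoids inside the cell, was at 14.3, 19.5 and 21.9 CPM with vehicle and at 24.3, 37.7 and 33.6 CPM with PGE2. The groups did not overlap, and it rose in the paired fit (0.77 ± 0.0900, edgeR adjusted p = 0.000543; unblocked 0.78 ± 0.208, 0.135). Mme, the cell-surface peptidase neprilysin, was at 48.5, 70.9 and 56.4 CPM with vehicle and 38.2, 52.5 and 48.9 CPM with PGE2, and fell in the paired fit (-0.33 ± 0.0775, edgeR adjusted p = 0.0203). With the length correction Mme was at -0.13 and did not pass (0.156). Fap, a protease related to DPP4, had a paired log2 fold change of -0.23 ± 0.0783 that did not pass (edgeR adjusted p = 0.0752) and of -0.27 with the length correction that did (0.0141). Nt5e, with 8 to 44 counts per library, had groups that did not overlap and a log2 fold change of 0.78 ± 0.286, and it did not pass in either fit (edgeR adjusted p = 0.195 and 0.0773).

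Of the 3 genes for secreted or actin-binding proteins, Gsn fell in the paired fit. It was at 1292, 1721 and 1553 CPM with vehicle and at 1108, 1154 and 1074 CPM with PGE2, with no overlap. Its paired log2 fold change was -0.44 ± 0.0979 (edgeR adjusted p = 0.0158), and it did not pass without pair 2. Smoc2 was at 310, 233 and 187 CPM with vehicle and 358, 265 and 231 CPM with PGE2. It was higher by 1.14-fold to 1.23-fold in each pair, and over all pairs it passed with the length correction and not without it (paired edgeR adjusted p = 0.00610 and 0.0559). It also passed without pair 3, where 33.3% of all tested genes passed, and not without pair 1 or pair 2 (edgeR adjusted p = 0.206 and 0.265). Clu, the extracellular chaperone clusterin, had a log2 fold change of 0.39 ± 0.273 and passed in neither fit. Without pair 3 Clu passed the paired fit (edgeR adjusted p = 2.36e-05).

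None of the 9 tested transcription factors rose in either fit, where 6.91% of all tested genes rose in the paired one. Their unblocked log2 fold changes ran from -0.50 to 0.06, with a median of -0.17. Tcf4, which encodes a helix-loop-helix protein and not the Wnt effector TCF7L2 that shares the old name, fell in the paired fit (-0.25 ± 0.0706, edgeR adjusted p = 0.0395) but was at -0.04 with the length correction (0.651). Its longest annotated transcript has 8577 bases. Tcf7l2, the Wnt effector used as a marker of muscle fibroblasts, was at 39.7, 42.7 and 37.9 CPM with vehicle and 30.5, 33.2 and 35.7 CPM with PGE2. Its groups did not overlap, and it passed in the length-corrected paired fit (-0.26, edgeR adjusted p = 0.0188) and not without it (-0.28, 0.0533).

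The other tested factors of mesenchymal identity did not pass in the unblocked fit or in the paired fit without the length correction. Prrx1 was at 400, 465 and 419 CPM with vehicle and 368, 383 and 391 CPM with PGE2, with no overlap and a log2 fold change of -0.17 ± 0.0870. Osr1, a zinc finger gene of limb mesenchyme, was at -0.15 ± 0.0818, and its paralog Osr2 at -0.27 ± 0.276. With the length correction Osr1 fell in the paired fit (-0.25, edgeR adjusted p = 0.0220) and Prrx1 was at -0.01. Hic1 was at -0.04 ± 0.112, Twist1 at 0.06 ± 0.0682 and Twist2 at -0.03 ± 0.0922, and the sign of Twist1 turned to -0.07 with the length correction. Another gene on the opposite strand covers 46.5% of the exon bases of Twist2, and the strand setting of the counting is not given in the sources used here. Gli1 had 6 to 39 counts per library and a log2 fold change of -0.50 ± 0.418.

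In all, 13 of the 31 tested markers had groups that did not overlap, or 41.9% against 25.9% of all tested genes. Of these 8 were higher, against 13.7% of all tested genes, and 5 lower, against 12.2%. The 5 lower were Gsn, Tcf7l2, Prrx1, Tcf4 and Cd81. The direction was the same in all 3 pairs for 24 of 31, or 77.4% against 52.1% of all tested genes. With each pair left out in turn, 9 of 31 markers passed the paired fit every time, against 5.17% of all tested genes, namely Ackr3, Cd34, Cd55, Hsd11b1, Ly6a, Ly6c1, Pi16, Procr and Thy1. The paired counts were 11 without pair 1, 10 without pair 2 and 20 without pair 3, where 9.11%, 7.58% and 33.3% of all tested genes passed. Mme and Tcf4 passed in the last of these and not in the others.

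Companion genes of the Pi16 and Dpp4 state did not move as one group. Of 9 such genes 8 were tested and 0 passed unblocked, where 0.342% of all tested genes did. In the paired fit 1 rose and 2 fell, where 6.91% and 7.51% of all tested genes did. Mfap5, a microfibril protein gene, rose in the paired fit from 108, 147.6 and 241 CPM to 160.1, 229.9 and 326 CPM (0.55, edgeR adjusted p = 0.00125). Sema3c, a secreted semaphorin, fell from 132, 96.7 and 71.7 CPM to 101, 58.3 and 45.7 CPM (-0.59, edgeR adjusted p = 0.00149), and Creb5 also fell (-0.70, 0.0491) but not with the length correction. Wnt2 had an edgeR adjusted p of 0.0501 and fell with that correction (-0.54, 0.0142). The median of the 8 was -0.236 unblocked and -0.071 with the length correction.

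Of 10 companions of the Col15a1-type state, all tested, 0 passed unblocked, where 0.342% of all tested genes did. In the paired fit 1 rose and 4 fell, where 6.91% and 7.51% of all tested genes did. Their unblocked median was -0.321. Col15a1, a basement membrane collagen, was at 204.5, 258 and 329.9 CPM with vehicle and 90.3, 128 and 198 CPM with PGE2 (paired -0.97, edgeR adjusted p = 0.000133). Penk, the enkephalin precursor gene, fell by 0.77 on the log2 scale (0.000841), and the cell adhesion gene Vcam1 by 0.47 (0.00231). Lum fell as well (-0.66, edgeR adjusted p = 0.0289). The chemokine gene Cxcl14 went the other way, from 114, 139 and 116 CPM to 243, 488 and 404 CPM (1.57, edgeR adjusted p = 0.000449 in the paired fit and 0.0669 unblocked), and did not pass with the length correction (0.0576). In the length-corrected paired fit 1 rose and 4 fell, where 8.82% and 7.97% of all tested genes did. The 1 that rose was Lpl (0.28, edgeR adjusted p = 0.0142). Of 8 general fibroblast genes 0 rose and 2 fell in the paired fit, where 6.91% and 7.51% of all tested genes did. The 2 were Vim (-0.54) and Col6a1 (-0.49), and the unblocked median of the 8 was 0.047. With the length correction the same 2 fell in the paired fit and Dcn rose (0.25, edgeR adjusted p = 0.0148).

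Markers of other cell types were also summed. In the paired fit 6.91% of all tested genes rose and 7.51% fell, and with the length correction 8.82% and 7.97%. Besides the myogenic genes, 7 pericyte and smooth muscle genes summed to 122, 109 and 73.8 CPM with vehicle and 87.8, 68.1 and 58.0 CPM with PGE2, and 3 of 7 fell in the paired fit (1 once length was corrected for), while the median log2 fold change of the 7 was 0.04 unblocked. Their defining genes Rgs5 and Myh11 were between 2.45 and 10.5 CPM and between 0.663 and 1.71 CPM. Of 5 Schwann cell genes 3 were tested and 2 fell, S100b and Cdh19, with sums between 6.91 and 8.09 CPM and between 4.24 and 5.10 CPM. Tendon genes summed to between 14.1 and 32.5 CPM with vehicle and between 12.5 and 25.5 CPM with PGE2, with 1 of 5 lower. Leukocyte genes summed to between 8.57 and 9.22 CPM and between 11.5 and 12.3 CPM, with Csf1r and Cd14 higher in the paired fit, of which Cd14 did not pass with the length correction (edgeR adjusted p = 0.0684). Adipocyte genes summed to between 10.1 and 22.3 CPM and between 4.13 and 11.5 CPM, with both tested members, Adipoq and Plin1, lower in the paired fit. The part of these cells in the marker differences was not tested, and these lists were chosen with earlier results of these data known.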

How the data were processed

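Polyadenylated RNA of 6 libraries was read as paired ends, per the labels' protocols. The authors deposited whole-number counts per gene with Ensembl identifiers. Reads were placed on mm10, going by the submitters' processing notes. Which aligner, counter, strand setting and annotation were used is not given in the sources used here. Totals ran from 21006044 to 52730962 counts, and 3 counts correspond to 0.0582 to 0.142 CPM, which covers counting error only. Between libraries of the same group, chi-square over its degrees of freedom was 19.3 to 93.1, above counting noise for every pair of libraries, which does not show that they are separate animals or cultures.

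The test was edgeR (version 4.0.16, under R 4.3.3; filterByExpr, trimmed mean of M values, robust quasi-likelihood test, Benjamini-Hochberg adjustment over all tested genes, threshold 0.05). Errors of fold changes are standard errors, taken as the fold change divided by the root of the F statistic. The paired fit adds the replicate number as a block. Deviations from group means correlated at 0.621, 0.169 and 0.422 for numbers 1 to 3, each above the limit of 0.1 that was set for pairing. The labels do not state a pairing, which rests here on these correlations. PGE2 library 2 correlated more with vehicle library 3, at 0.252, and PGE2 library 3 correlated with vehicle library 2 at 0.145. Both values are above the same limit, so the limit does not single out the same-numbered pairing of libraries 2 and 3. The length correction adds a lowess trend per library (span 0.3) on the longest GENCODE transcript to the offset. That annotation, on GRCm38, held 97.3% of the identifiers. Alternatives were DESeq2 version 1.42.0, limma-voom (limma version 3.58.1), other scalings and filters, and left-out libraries or pairs. Fits were also run on simulated data with 200 changed genes, which held no replicate effect and no length trend. That simulation therefore does not check the pairing or the length correction. Words of 100 bases shared between genes were counted in GENCODE transcripts.

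All 32 markers are named. Of the other lists, members called unblocked, or otherwise up to 4 with the smallest paired adjusted p, are named. Lum and Lpl are named besides, and some defining markers are named as checks. The markers, lists and tests were chosen with earlier results of these data known.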

Additional observations from a re-analysis of the deposited data

How the results depend on the processing

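The unblocked edgeR test called 52 of all tested genes and 0 of the markers. With the replicate block these counts were 2189 and 13, with the replicate block and length correction 2549 and 17, and with DESeq2 and a replicate block 1922 and 13. DESeq2 unblocked called 829 and 8, the edgeR fit with no filter on low counts 285 and 5, limma-voom 15 and 0, the length correction 15 and 0, and an adjusted p of 0.01 gave 0 and 0. Leaving out 1 library unblocked gave 0 to 120 genes and 0 to 1 markers, and leaving out 1 pair with the block 1160 to 5097 genes (1372 without pair 1) and 10 to 20 markers (11 without pair 1), highest without pair 3. The cause of these differences was not tested.

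The median log2 fold change of the Dpp4/Pi16/Cd55-type markers stayed between 0.514 and 0.741 in all settings. That of the other markers was -0.034, with -0.078 for library totals alone and -0.078 to 0.006 with libraries left out. The median level per length of 17.9 CPM per kilobase was 13.9 with merged exons. Signs turned for markers near 0: Pdgfra (-0.001 with RLE scaling, -0.037 with library totals), Anxa3 and Twist1 (-0.065 and -0.069 with the length correction, -0.061 and -0.070 with block and length correction). With single libraries left out, values ran from -0.088 to 0.104 for Pdgfra, -0.135 to 0.039 for Hic1, -0.065 to 0.219 for Cd248, -0.061 to 0.198 for Anxa3, -0.038 to 0.155 for Eng, -0.753 to 0.031 for Gli1 and -0.100 to 0.060 for Twist2, and without pair 3 in the blocked fit Pdgfra was at -0.070, Eng at -0.024 and Twist2 at 0.043.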
